A study of Homo sapiens with 8 samples.

Results

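The genes of the cytosolic ribosomal proteins were followed in human embryonic stem cells (hESCs) of the line BG01 after an antibody against the secreted glycoprotein MFGE-8. They were chosen by symbol: RPL or RPS with a number and at most an A or X after it, RPLP0, RPLP1 and RPLP2, together with RPSA and RPL36AL. The rule found 78 of the 62086 genes in the table, 47 of the large and 31 of the small subunit, and all 78 were among the 20165 genes that passed the filter on low counts. RNA from BG01 cells in mTeSR medium was sequenced at 12 or 24 h of exposure to anti-M8nAb, a neutralizing antibody to MFGE-8, or to normal mouse IgG as the isotype control, both at 5 µg/mL. Each of the 4 groups held 2 libraries, labelled as biological replicates of this 1 cell line, and p-values measure only the spread between these 8 libraries. No gene was deleted or silenced, so no targeted transcript checks the labels. The comparisons ask how blocking MFGE-8 altered transcript levels at each time.

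A ribosome joins a small subunit, which reads the mRNA, to a large subunit, which forms the peptide bond, and each subunit carries its own ribosomal proteins, nearly all in a single copy. Their mRNAs are among the most abundant of a dividing cell and belong to the TOP mRNAs, which start with a C followed by a tract of pyrimidines. Through this 5′ terminal oligopyrimidine tract the kinase mTOR and the RNA-binding protein LARP1 govern their translation and stability together.

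Counts over genes came to 21010400 to 21792716 per library. CPM below stands for counts relative to the TMM-scaled total of a library, a fold change sets anti-M8nAb against IgG of the same time, its ± is the SE of the edgeR fit, and adjusted p is the Benjamini-Hochberg value of edgeR's quasi-likelihood test over all genes unless another tool is named. The pluripotency markers on a list of 10, among them POU5F1, SOX2 and NANOG, were present in all 8 libraries at 89.0 CPM or more. The 8 fibroblast markers summed to 531 to 733 CPM, mostly THY1, while DCN and LUM stayed below 0.59 CPM. By group means that sum was 531 CPM with IgG against 592 CPM with the antibody at 12 h, and 620.1 against 721 CPM at 24 h. Of the 6 fibroblast markers past the filter, 2 rose and 1 fell at each time. Their log2 fold changes ran from −0.60 to 0.71 at 12 h and from −1.09 to 0.68 at 24 h. Of the 10 pluripotency markers, 7 rose at 12 h with a median log2 fold change of 0.14, and 3 rose and 3 fell at 24 h with a median of 0.00. The part of these markers in the results was not tested. The 6 blood markers summed to 1.61 CPM or less. By pseudogenes of the members 1 library, replicate 2 of anti-M8nAb at 12 h, stood apart (values with the sums over members), and without it 35 of the 42 members that rose at 12 h still did. A change in CPM is relative to the other RNA of a library, and fewer cells and less RNA per cell cannot be told apart in bulk RNA.

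The sequence around the transcription start was read for the members from the RefSeq promoter table (GRCh38.p14), in which 63 of the 78 had an entry. The other 15 had none. The windows below are those of 8 of the members named later. Each runs from 15 bases before the annotated start to 15 bases from it, on the sense strand, with the run of pyrimidines that begins at the start in capitals.
RPLP0: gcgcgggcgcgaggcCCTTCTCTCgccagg
RPLP2: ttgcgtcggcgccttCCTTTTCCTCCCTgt
RPL3: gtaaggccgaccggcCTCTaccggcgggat
RPS9: gtggcgcttccgcgcCTCTTTCTCagtgac
RPS6: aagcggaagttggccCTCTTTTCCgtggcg
RPS28: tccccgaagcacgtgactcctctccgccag
RPL36A: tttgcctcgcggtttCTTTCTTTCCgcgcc
RPL36AL: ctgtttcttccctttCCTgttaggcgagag
These windows lie at chr12:120201097-120201126 (RPLP0, minus strand), chr11:809952-809981 (RPLP2, plus strand), chr22:39319609-39319638 (RPL3, minus strand), chr19:54200843-54200872 (RPS9, plus strand), chr9:19380222-19380251 (RPS6, minus strand), chr19:8321481-8321510 (RPS28, plus strand), chrX:101390996-101391025 (RPL36A, plus strand) and chr14:49620612-49620641 (RPL36AL, minus strand). The runs spanned 9 bases in RPLP0, 13 in RPLP2, 9 in RPS9, 9 in RPS6 and 10 in RPL36A. In RPL3 the run was 4 bases long and in RPL36AL 3. The annotated start of RPS28 is an A, directly followed by a tract.

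A tract was counted where a C at an annotated start was followed by at least 4 bases that are each C or T on the sense strand. Some genes have several annotated starts, and a gene was counted if any of them held the tract. It was found in 46 of the 63 members (73.0%), against 5.14% of the 27305 genes in the table. When it could begin within 5 bases on either side of the start, 54 members (85.7%) held it, against 25.2% of all genes. RPL15 and RPS4X, which rose at both times and whose windows are not shown, held no tract by either count. The match describes annotated starts and not the starts used in these cells. In the 46 members with the strict tract the median log2 fold change of anti-M8nAb against IgG was 0.14 at 12 h and 0.19 at 24 h, and in the 17 without it 0.12 and 0.16.

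The members differed widely in level. RPLP0, the scaffold of the large subunit's stalk, had the highest mean at 2046 CPM and RPS10 the lowest at 76.3 CPM, with a median of 521 CPM. Per length, the mean FPKM of the authors' table ran from 17.1 for RPS29 to 706 for RPS12, with a median of 168. These per-length levels follow the annotation. The FPKM of all 78 members gave back, within 1%, the length of all annotated exons joined, which is 9840 bases for RPS29, the longest among the members, and 639 bases for RPS12, the shortest, so per-length order cannot be read as an order of transcripts per cell.

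The genes lie on 21 chromosomes, with 12 on chromosome 19, 7 on chromosome 3, 6 on chromosome 17 and 4 on the X chromosome (RPL10, RPL36A, RPL39 and RPS4X). In 28 of them lie 60 small nucleolar RNA genes on the same strand. Retrotransposed copies are frequent in this family. For 77 members the annotation lists 1587 pseudogenes named after them, 133 for RPL21 and none for RPL36AL, and 189 of the pseudogenes passed the filter. Reads that match a member and its copies equally well cannot be placed, which makes the split between them uncertain. Other genes on the same strand overlap at least 10% of the exon sequence of 8 members, led by RPL17 (32.9%), RPS10 (31.5%) and RPS2 (25.9%). Genes on the other strand do so for 9, led by RPL10 (50.5%), RPL30 (40.8%) and RPS28 (20.6%).

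At 12 h of anti-M8nAb, transcripts of most ribosomal proteins were modestly higher than with IgG. By edgeR's quasi-likelihood test, adjusted over all genes, 42 of the 78 members rose, 1 fell and 35 did not pass, where 15.8% of the 20165 genes rose and 16.4% fell. The fold change was positive in 76 members. The median log2 fold change was 0.13, a rise of 9.45%, and the median over all genes was 0.00. Among the 3159 genes at least as abundant as the lowest member, 29.5% rose and 17.8% fell, with a median of 0.04. No member reached a 2-fold change with an adjusted p under 0.05, a threshold that 3.4% of all genes passed upward and 2.97% downward. In 59 members both anti-M8nAb libraries lay above both IgG libraries and in 1 below, where 32.9% and 33.3% of all genes did so.

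RPS28, which lies where the mRNA leaves the small subunit, had the largest fold change at 12 h. Its levels were 231 and 228 CPM under IgG and 269 and 266 CPM under anti-M8nAb (0.22 ± 0.05 in log2 fold change, adjusted p = 0.0012), so both treated libraries stood above both controls. The smallest adjusted p belonged to RPL15, which read 890.0 and 889 CPM under IgG and 1033 and 1017 CPM under anti-M8nAb (0.20 ± 0.04 in log2 fold change, adjusted p = 0.00017). RPS9, a protein near the mRNA entry, measured 770.0 and 781 CPM under IgG and 910.3 and 875 CPM under anti-M8nAb (0.20 ± 0.04 in log2 fold change, adjusted p = 0.00036). The groups did not overlap in either gene. RPL3, a protein that reaches close to the peptidyl transferase centre, had 1697 and 1726 CPM under IgG and 1973 and 1896 CPM under anti-M8nAb (0.18 ± 0.04 in log2 fold change, adjusted p = 0.00053). RPL41, the shortest ribosomal protein, had 302 and 304 CPM under IgG and 358 and 344 CPM under anti-M8nAb (0.21 ± 0.05 in log2 fold change, adjusted p = 0.00078). Again all treated values exceeded the controls.

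The count at 12 h was sensitive to scaling and to single libraries. It was 15 with total counts in place of TMM, which moved the median of the members to 0.07 and that of all genes by −0.06, and 4 with limma on log2(FPKM + 1). It was 16 without IgG replicate 1, 20 without IgG replicate 2 and 25 without anti-M8nAb replicate 1 of that time. Without anti-M8nAb replicate 2 it was 46, and RPL10A, RPL17, RPL31, RPL34, RPLP1, RPS21 and RPS23 no longer passed. The distance of the members' median from that of all genes was 0.13 under both scalings. A scaling factor shifts all genes of a library nearly alike, so this distance cannot test the scaling.

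**Figure D1:**
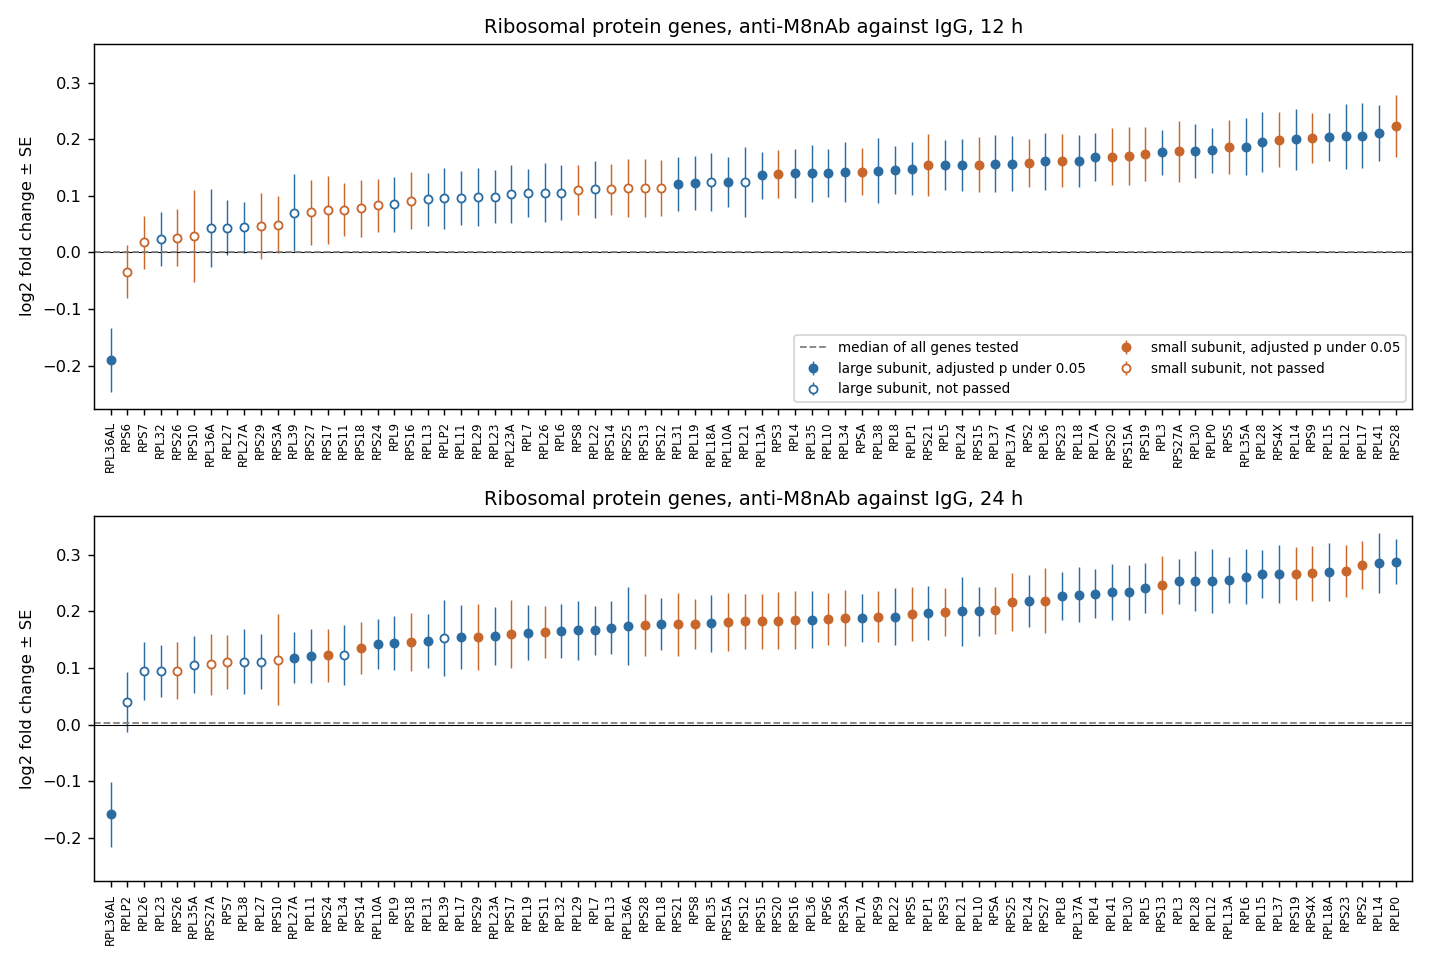
Log2 fold change (± SE, y axis) of anti-M8nAb against IgG for each of the 78 members, ordered by value (x axis), at 12 h (top) and 24 h (bottom). Filled points passed an adjusted p under 0.05, blue marks the large and orange the small subunit, and the dashed line is the median of all genes tested; RPL36AL alone passed below 0 at both times, and filled points number 43 at 12 h and 66 at 24 h.

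At 24 h more members passed than at 12 h, and the median estimate was somewhat larger. The difference between the times, tested for itself, passed in 1 member. Without anti-M8nAb replicate 2 of 12 h, the members' medians were 0.17 at 12 h and 0.19 at 24 h. Of the 78, 65 rose at 24 h, 1 fell and 12 did not pass, where 21.2% of all genes rose and 21.3% fell. The fold change was positive in 77. The median log2 fold change was 0.18, a rise of 13.5%, against 0.00 over all genes and 0.07 over the 3159 abundant genes, of which 37.3% rose and 22.0% fell. Again no member passed the 2-fold threshold, which 4.76% of all genes passed upward and 4.84% downward. In 77 members both treated libraries lay above both controls and in 1 below, where 34.8% and 34.2% of all genes did so, and no member overlapped. The count was 27 with total counts, under which the members' median was 0.09 and that of all genes moved by −0.09, and 17 with limma on log2(FPKM + 1). It was 43 without anti-M8nAb replicate 2 of that time.

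Both times shared 38 members that rose. RPL34, RPL35A, RPL38 and RPS27A passed at 12 h alone and 27 members at 24 h alone. RPL23, RPL26, RPL27, RPL39, RPLP2, RPS10, RPS26 and RPS7 passed at neither time. The estimate was larger at 24 h in 68 members, but the difference between the times, tested for itself, passed in 1 of them, RPS6, where 5.79% of all genes passed upward and 6.54% downward. It had an unadjusted p under 0.05 in 6 members. In the IgG cells 4 members had an unadjusted p under 0.05 from 12 to 24 h. By adjusted p no member passed, where 7.01% of all genes rose and 6.64% fell. With DESeq2 this count was also 0, while 10 of 24 alternatives called between 1 and 3 members lower. The estimate was positive in 5 members, and the median was −0.05, as in the 3159 abundant genes. In 51 members both IgG libraries of 24 h lay below both of 12 h and in 1 above, where 27.8% and 27.1% of all genes did so.

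The stalk of the large subunit, built of RPLP0, RPLP1, RPLP2 and RPL12, recruits the translation factors that hydrolyse GTP. At both times 3 of its 4 members (75.0%) rose and RPLP2 did not pass. Over all 78 members 53.8% rose at 12 h and 83.3% at 24 h. RPLP0 measured 1917 and 1935 CPM under IgG and 2240.4 and 2124 CPM under anti-M8nAb at 12 h (0.18 ± 0.04 in log2 fold change, adjusted p = 0.00041), and 1794 and 1875 CPM under IgG and 2222 and 2259 CPM under anti-M8nAb at 24 h (0.29 ± 0.04 in log2 fold change, adjusted p = 9.1e-08). This was the largest fold change of any member at 24 h, with a wide gap between the groups. RPL12, at the base of the stalk, read 446 and 425 CPM under IgG and 551 and 453 CPM under anti-M8nAb at 12 h (0.20 ± 0.06 in log2 fold change, adjusted p = 0.0044) and 408 and 425 CPM under IgG and 479 and 514 CPM under anti-M8nAb at 24 h (0.25 ± 0.06 in log2 fold change, adjusted p = 0.00029). Its treated libraries at 12 h differed from each other far more than the controls did, with replicate 2 close to them. RPLP1, the partner of RPLP2 on the stalk, rose by 0.15 (adjusted p = 0.013) and 0.20 (adjusted p = 0.00064) on the log2 scale. For RPL12 and for RPLP1, the call was lost in 7 of 25 alternatives at 12 h and in 4 at 24 h. RPLP2 itself read 319.7 and 329 CPM under IgG and 334 and 333 CPM under anti-M8nAb at 24 h (0.04 ± 0.05 in log2 fold change, adjusted p = 0.58). The groups stood apart by little, and the estimate turned to −0.05 with total counts.

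**Figure D2:**
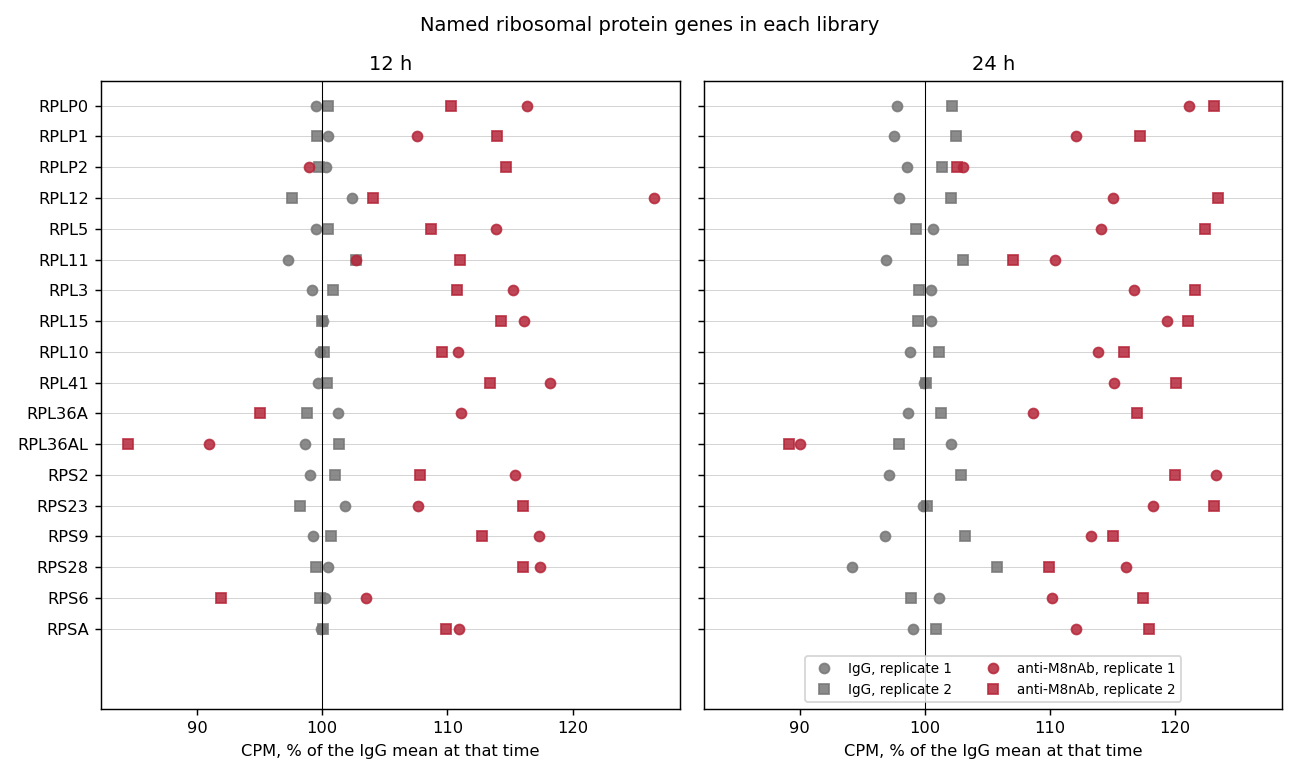
CPM of 18 named members (y axis) in each library as a percentage of the IgG mean at the same time (x axis), at 12 h (left) and 24 h (right). Grey marks IgG and red anti-M8nAb, circles replicate 1 and squares replicate 2; at 24 h the red points lie to the right of the grey ones in every row but that of RPL36AL, and at 12 h red and grey overlap in RPLP2, RPL36A and RPS6.

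RPL5 and RPL11 bind the 5S ribosomal RNA in a particle that, outside the ribosome, inhibits MDM2 and so stabilizes p53. RPL5 rose at both times, a call lost in 6 of 25 alternatives at 12 h and in 1 at 24 h. It had 957 and 967 CPM under IgG and 1096 and 1046 CPM under anti-M8nAb at 12 h (0.15 ± 0.04 in log2 fold change, adjusted p = 0.0054), and 914 and 902 CPM under IgG and 1036 and 1111 CPM under anti-M8nAb at 24 h (0.24 ± 0.04 in log2 fold change, adjusted p = 1.4e-05). RPL11 passed at 24 h, by 0.12 (adjusted p = 0.035), while its estimate of 0.10 at 12 h missed the threshold (adjusted p = 0.12). The call at 24 h was lost in 12 of 25 alternatives, with estimates down to 0.034 and adjusted p from 0.0034 to 0.81.

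RPS2, RPS3, RPS23 and RPS15 line the path of the mRNA and the decoding centre of the small subunit, and all 4 rose at both times, with medians of 0.16 and 0.24 on the log2 scale. RPS2 read 1318 and 1344 CPM under IgG and 1536 and 1435 CPM under anti-M8nAb at 12 h (0.16 ± 0.04 in log2 fold change, adjusted p = 0.0034) and 1283 and 1358 CPM under IgG and 1628 and 1584 CPM under anti-M8nAb at 24 h (0.28 ± 0.04 in log2 fold change, adjusted p = 5.1e-07). RPS23, at the decoding centre, had 604 and 583 CPM under IgG and 639 and 689 CPM under anti-M8nAb at 12 h (0.16 ± 0.05 in log2 fold change, adjusted p = 0.0059) and 575 and 577 CPM under IgG and 681 and 709.5 CPM under anti-M8nAb at 24 h (0.27 ± 0.05 in log2 fold change, adjusted p = 5.4e-06). In both genes every treated library was above every control. For each of them the call was lost in 6 of 25 alternatives at 12 h and in 1 at 24 h. Around the exit tunnel of the large subunit, 5 of 8 proteins (62.5%) rose at 12 h and 6 of 8 (75.0%) at 24 h. The shares over all 78 members were 53.8% and 83.3%. RPL4, which reaches into the tunnel, rose by 0.14 and 0.23 (adjusted p = 0.011 and 2.2e-05). RPL26 and RPL39 passed at neither time.

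RPL13A, also known as part of a complex that silences mRNAs of inflammation, measured 1221 and 1235 CPM under IgG and 1448 and 1484 CPM under anti-M8nAb at 24 h (0.26 ± 0.04 in log2 fold change, adjusted p = 1.6e-06). RPSA, which doubles as a laminin receptor, measured 1084 and 1103 CPM under IgG and 1226 and 1289 CPM under anti-M8nAb (0.20 ± 0.04 in log2 fold change, adjusted p = 0.0001). The treated values lay above the controls in both. RPS4X, encoded on the X chromosome, rose by 0.20 (adjusted p = 0.0013) at 12 h and 0.27 (adjusted p = 1.5e-05) at 24 h. RPL10, which takes part in the joining of the subunits, rose by 0.14 and 0.20 (adjusted p = 0.0098 and 0.00017), although 50.5% of its exon sequence is overlapped on the other strand. RPL10A, at the stalk on the other side, rose by 0.12 and 0.14 (adjusted p = 0.028 and 0.0085). Of 25 alternatives, 10 lost the call of RPL10A at 12 h and 6 at 24 h, with estimates down to 0.064 and 0.054. For RPL10 the call was lost in 6 at 12 h and in 1 at 24 h.

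RPL22, which also binds viral RNA, RPS25, known for its part in initiation at internal ribosome entry sites, and RPS12 passed at 24 h alone, with log2 fold changes of 0.19, 0.22 and 0.18 (adjusted p = 0.0017, 0.00057 and 0.0022). The opposite held for RPS27A, made as a fusion with ubiquitin, and RPL38, known from mice for its role in the translation of Hox mRNAs. They passed at 12 h, by 0.18 and 0.14 (adjusted p = 0.0081 and 0.049), and gave 0.11 and 0.11 at 24 h (adjusted p = 0.11 and 0.12). Of 25 alternatives, 7 lost the call of RPS27A at 12 h (adjusted p from 2.5e-05 to 0.49) and 13 that of RPL38 (0.0099 to 0.50). RPL38 was at 153 and 159.5 CPM in controls and at 181 and 165 CPM in treated libraries of 12 h. None of these 5 genes passed the test of the difference between the times.

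The 17 members whose mutation causes Diamond-Blackfan anaemia, an inherited failure of red cell production, had medians of 0.10 and 0.16. Of them 7 (41.2%) rose at 12 h and 11 (64.7%) at 24 h. Over all 78 members 53.8% and 83.3% rose, with medians of 0.13 and 0.18. RPS19, the gene most often mutated in this anaemia, rose by 0.17 and 0.27 (adjusted p = 0.0037 and 9.8e-06). RPS7, RPS10, RPS26, RPL26 and RPL27 of this list passed at neither time. RPS10, the least abundant member, read 76.5 and 73.5 CPM under IgG and 87.7 and 65.3 CPM under anti-M8nAb at 12 h (0.03 ± 0.08 in log2 fold change, adjusted p = 0.83). Its 2 treated libraries bracketed the controls.

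RPL36AL was the one member that fell. It encodes a protein nearly identical to that of RPL36A, a zinc-binding protein of the large subunit, from a separate gene on chromosome 14. RPL36AL read 172 and 176 CPM under IgG and 158 and 147 CPM under anti-M8nAb at 12 h (−0.19 ± 0.06 in log2 fold change, adjusted p = 0.0082) and 172 and 165 CPM under IgG and 151 and 149.9 CPM under anti-M8nAb at 24 h (−0.16 ± 0.06 in log2 fold change, adjusted p = 0.021). Both treated libraries lay below both controls at each time, and it fell by 12.3% at 12 h and fell by 10.4% at 24 h. The call was lost without IgG replicate 2 or anti-M8nAb replicate 2 at 12 h (adjusted p = 0.13 and 0.19), and at 24 h without IgG replicate 1, anti-M8nAb replicate 1 or anti-M8nAb replicate 2 (adjusted p = 0.088, 0.065 and 0.096), and its adjusted p ranged from 0.00023 to 0.19 at 12 h and from 0.00035 to 0.096 at 24 h over all alternatives. In its window above, a run of pyrimidines also lies just before the annotated start.

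RPL36A, the paralog on the X chromosome, passed upward at 24 h. It read 92.1 and 89.8 CPM under IgG and 101 and 86.4 CPM under anti-M8nAb at 12 h (0.04 ± 0.07 in log2 fold change, adjusted p = 0.68) and 86.5 and 88.8 CPM under IgG and 95.3 and 103 CPM under anti-M8nAb at 24 h (0.17 ± 0.07 in log2 fold change, adjusted p = 0.036). At 12 h the groups overlapped, with anti-M8nAb replicate 2 below both controls, and the estimate turned to −0.02 with total counts. At 24 h the call was lost in 13 of 25 alternatives (adjusted p from 0.0077 to 0.56). Counts in the 52 pseudogenes named for RPL36A came to 24.3% of its own, the highest share of any member. Of the 6 zinc-binding members, 2 rose (33.3%) and 1 fell at 12 h, and 5 rose (83.3%) and 1 fell at 24 h. Over all 78 members 53.8% rose at 12 h and 83.3% at 24 h. RPS29, the member with the lowest FPKM, read 149 and 157 CPM under IgG and 168 and 173 CPM under anti-M8nAb at 24 h (0.16 ± 0.06 in log2 fold change, adjusted p = 0.028), with no overlap. This call was lost in 12 of 25 alternatives, with estimates from 0.064 to 0.19.

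RPS6, the classical substrate of the S6 kinases, was the member whose response differed between the times. It read 1033 and 1029.7 CPM under IgG and 1067 and 948 CPM under anti-M8nAb at 12 h (−0.03 ± 0.05 in log2 fold change, adjusted p = 0.63). The treated libraries at this time fell on either side of the controls. At 24 h it had 998 and 976 CPM under IgG and 1087 and 1159 CPM under anti-M8nAb (0.19 ± 0.05 in log2 fold change, adjusted p = 0.001), with all treated values above the controls. The response was greater at 24 h by 0.22 ± 0.07 (SE) on the log2 scale (adjusted p = 0.02). This call was lost in 10 of 24 alternatives, 6 of which left out a library, and without anti-M8nAb replicate 2 of 12 h the difference was 0.14 (adjusted p = 0.20; range over the alternatives 0.00019 to 0.44).

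Summed over the 78 members, the level was 44930.2 and 45182 CPM under IgG and 50418 and 48229 CPM under anti-M8nAb at 12 h. At 24 h it was 43123 and 43867 CPM under IgG and 49009 and 50962 CPM under anti-M8nAb. The treated sums were 9.47% and 14.9% higher by their means, more than the spread within any group. As a share of all counts over genes, without scaling, the members took up 4.56 ± 0.0014% (SD, n = 2) with IgG and 4.78 ± 0.12% under anti-M8nAb at 12 h. At 24 h these shares were 4.52 ± 0.074% and 4.89 ± 0.13%. Both subunits moved by like amounts. The large subunit was 10.02% and 15.3% higher and the small subunit 8.55% and 14.3%, and the ratio of large to small was 1.68 with IgG at both times and 1.70 and 1.69 with anti-M8nAb. From 12 to 24 h the sum in IgG cells fell by 3.47%.

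The pseudogenes named for members summed to 723 and 712 CPM with IgG at 12 h and to 665 and 723 CPM at 24 h. With anti-M8nAb they summed to 1077 and 1913 CPM at 12 h and 811 and 828 CPM at 24 h. Replicate 2 of anti-M8nAb at 12 h thus stood far above all other libraries, at 3.97 pseudogene counts per 100 member counts, followed by replicate 1 of that group at 2.14, with the other 6 libraries between 1.54 and 1.65. In the same replicate 2, 57 of the 78 members were below replicate 1, RPS10 the most. In anti-M8nAb at 24 h, replicate 2 was above replicate 1 in 69. Across the 78 members, a higher share of pseudogene counts went with a lower value of replicate 2 over replicate 1 in anti-M8nAb at 12 h (Pearson's r = −0.31, from the same pair of libraries). In the other groups r was −0.14 for IgG of 12 h, −0.11 for IgG of 24 h and −0.0031 for anti-M8nAb of 24 h. When each member's pseudogene counts were added to its own, 57 members rose at 12 h and 69 at 24 h. What set this library apart was not tested.

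**Figure D3:**
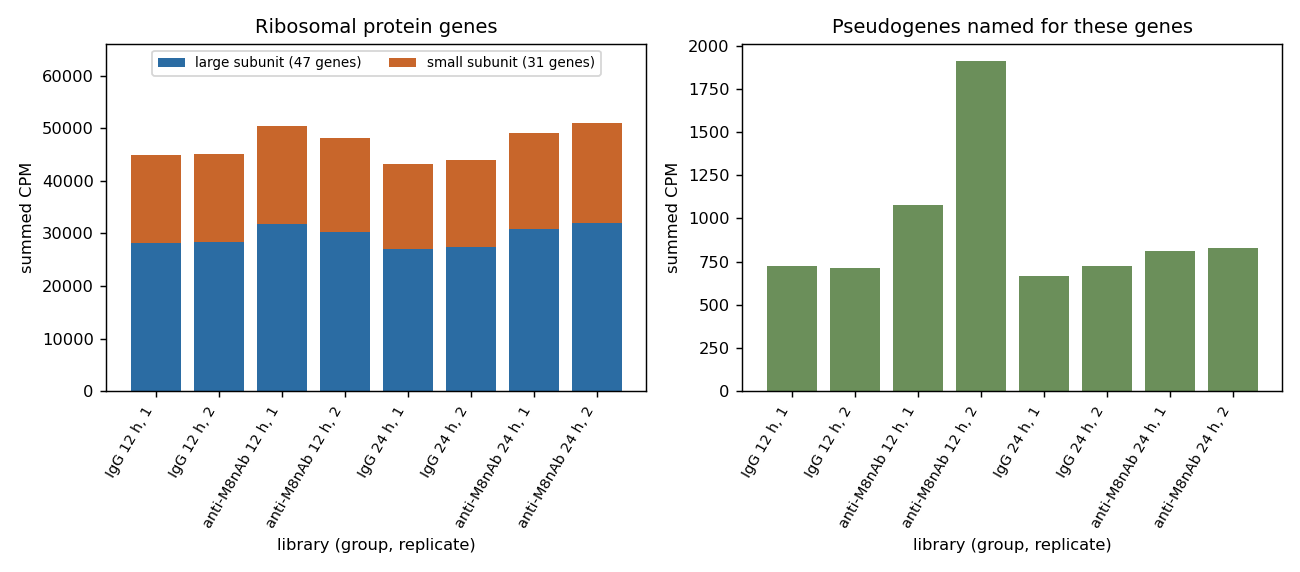
Summed CPM (y axis) in each of the 8 libraries (x axis) of the 78 members, split into large and small subunit (left), and of the 1587 pseudogenes named for them (right). The member sums of the 4 treated libraries, 48229 to 50962 CPM, exceed the 4 control sums, and the pseudogene bar of anti-M8nAb 12 h replicate 2 reaches 1913 CPM.

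The members varied little among themselves. The SD of the log2 fold change over the 78 was 0.06 at 12 h and 0.07 at 24 h, and the median SE of a single member was 0.05. Across the members, the fold changes at 12 and 24 h had Pearson's r of 0.65 and Spearman's rho of 0.54. With the log2 mean CPM the fold change had an r of 0.26 at 12 h and 0.43 at 24 h, and the more abundant members also have the smaller counting error. With GC content r was 0.24 at 12 h and 0.14 at 24 h, and with the number of pseudogenes −0.0056 and 0.050. These are descriptions over genes that share libraries and normalization. Members that host small nucleolar RNAs had medians of 0.13 and 0.19, the others 0.13 and 0.18. The 4 members on the X chromosome had medians of 0.11 and 0.19.

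**Figure D4:**
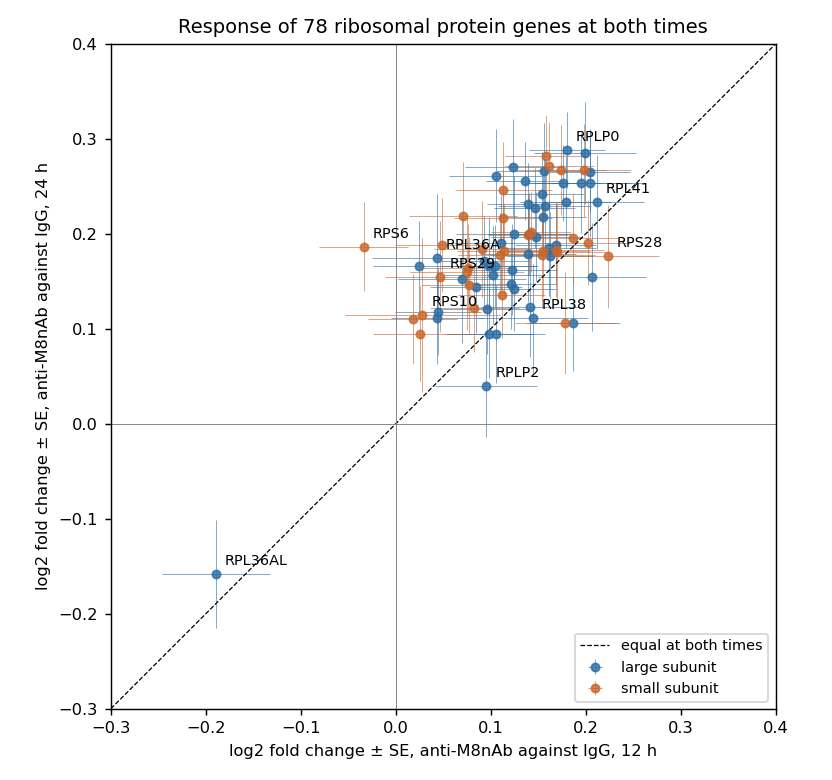
Log2 fold change (± SE) of anti-M8nAb against IgG at 12 h (x axis) and at 24 h (y axis) for the 78 members, the large subunit in blue and the small in orange. Points above the dashed line of equality, 68 of the 78, had the larger value at 24 h; RPL36AL lies apart at the lower left and RPS6 left of 0 on the x axis.

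Ribosomal proteins and close relatives outside the rule on symbols were checked from a list of 10, of which RPL3L and RPL10L did not pass the filter. Of the other 8, 1 rose at 12 h (12.5%), and 5 rose (62.5%) and 1 fell at 24 h. Over all genes 15.8% rose at 12 h, and 21.2% rose and 21.3% fell at 24 h. At 12 h these genes were thus not above the background. RACK1, a scaffold on the head of the small subunit, went from a mean of 948 to 1061 CPM at 12 h (0.16 ± 0.04 in log2 fold change, adjusted p = 0.0033) and rose by 0.14 at 24 h (adjusted p = 0.01). FAU, which encodes a small subunit protein fused to a ubiquitin-like sequence, rose at 24 h by 0.14 (adjusted p = 0.02). RPS27L and RPL26L1, paralogs of RPS27 and RPL26, rose at 24 h by 0.23 and 0.30 (adjusted p = 0.016 and 0.0058). Of 25 alternatives, 7 lost the call at 24 h for FAU and for RPS27L, and 6 for RPL26L1 and for RACK1. For RACK1 the call at 12 h was lost in 5. The one that fell was RPL22L1, the paralog of RPL22, which stood at −0.19 on the log2 scale (adjusted p = 0.021) and was chosen after its value was seen.

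Most TOP mRNAs other than those of ribosomal proteins moved in the same direction. On a list of 15, which also holds RACK1, 10 rose and 0 fell at 12 h, and 12 rose and 0 fell at 24 h, with medians of 0.19 at both times. With an unadjusted p under 0.05 there were 12 and 13, and the latter counts cover either direction. Of the 3159 abundant genes, 29.5% rose and 17.8% fell at 12 h, and 37.3% rose and 22.0% fell at 24 h. The list also holds EEF1G, which had a mean of only 0.40 CPM and passed at neither time. Its log2 fold changes were 0.35 at 12 h and −0.53 at 24 h. EEF1A1, the elongation factor that delivers aminoacyl-tRNA, rose from a mean of 4841 to 5703 CPM at 12 h (0.24 ± 0.04 in log2 fold change, adjusted p = 8.7e-07) and from 4680.1 to 6220.1 CPM at 24 h (0.41 ± 0.04 in log2 fold change, adjusted p = 4.3e-13). Its response was larger at 24 h by 0.17 (adjusted p = 0.016), a call lost in 8 of 24 alternatives (adjusted p from 0.00081 to 0.32). EEF2, which drives translocation, rose by 0.24 and 0.30, PABPC1, the poly(A)-binding protein, by 0.24 and 0.37, and EIF4B, an initiation factor, by 0.25 and 0.25. TPT1, a growth-related tumour protein, rose by 0.29 at 24 h.

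**Figure D5:**
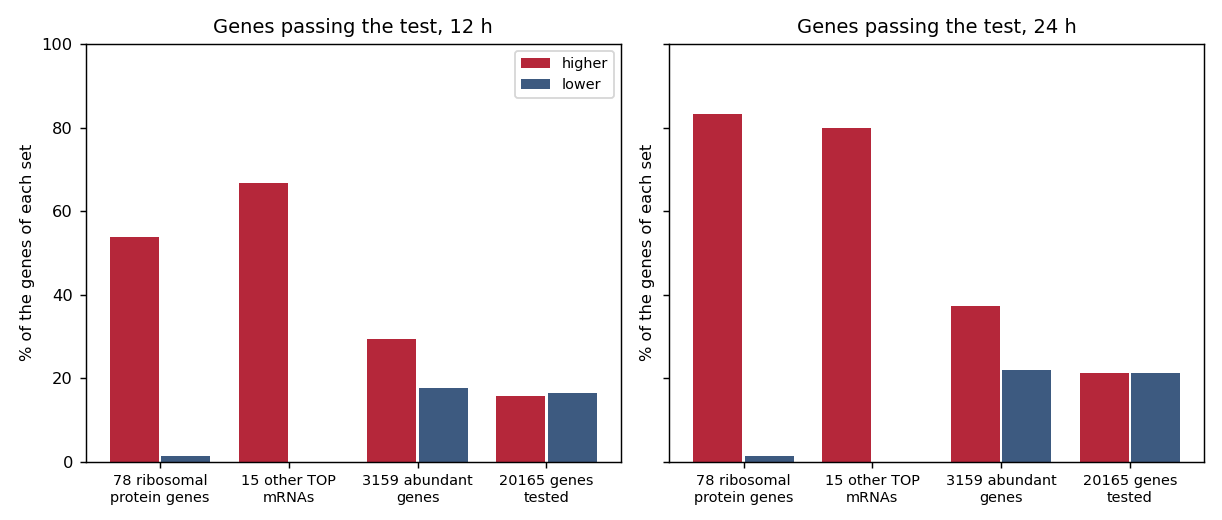
Share of genes (y axis, %) that passed an adjusted p under 0.05 upward (red) and downward (blue) at 12 h (left) and 24 h (right) in 4 sets (x axis): the 78 members, 15 other TOP mRNAs, the 3159 genes at least as abundant as the lowest member, and all 20165 genes tested. The members reach 53.8% upward at 12 h and 83.3% at 24 h.

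Regulators of TOP mRNAs were mixed. Of 14, 7 rose and 1 fell at 12 h, and 6 rose (42.9%) and 1 fell at 24 h, where 29.5% of the abundant genes rose at 12 h and 37.3% at 24 h. MYC, a transcription factor that drives ribosome production, rose from a mean of 89.3 to 167 CPM at 12 h (0.90 ± 0.06 in log2 fold change, adjusted p = 6.9e-16) and from 95.3 to 163 CPM at 24 h (0.78 ± 0.06 in log2 fold change, adjusted p = 2.7e-14). RPS6KB1, which encodes an S6 kinase, rose by 0.54 and 0.49, and CNBP, which binds TOP mRNAs, by 0.26 and 0.28. TIA1, which holds TOP mRNAs back under starvation, rose at 12 h by 0.29. The regulator that fell was EIF4EBP1, an inhibitor of cap-dependent initiation and target of mTOR, at −0.22 and −0.27 in log2 fold change at 12 and 24 h (adjusted p = 0.012 and 0.0013).

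Among 12 chaperones and importins of ribosomal proteins, 4 rose and 2 fell at 12 h, and 2 rose and 2 fell at 24 h. Over all genes 15.8% rose and 16.4% fell at 12 h and 21.2% and 21.3% at 24 h. Of the 3159 abundant genes 29.5% rose and 17.8% fell at 12 h, and 37.3% and 22.0% at 24 h. The share of this list that rose was 33.3% at 12 h, near that of the abundant genes. At 24 h it was 16.7%, not above either background. IPO7, an importin that brings ribosomal proteins into the nucleus, rose by 0.31 and 0.29. AAMP fell by 0.26 and 0.19 on the log2 scale. GRWD1, the chaperone of RPL3, differed between the times. Its means were 106 CPM under IgG and 122 CPM under anti-M8nAb at 12 h (0.20 ± 0.06 in log2 fold change, adjusted p = 0.016) and 102 and 91.8 CPM at 24 h (−0.15 ± 0.07 in log2 fold change, adjusted p = 0.057), a difference of −0.35 (adjusted p = 0.0077). The difference was lost in 7 of 24 alternatives (adjusted p from 0.0020 to 0.19), and the rise at 12 h in 7 of 25 (8.8e-05 to 0.40).

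The genes whose log2 CPM over the 8 libraries was most like the mean of the members, among 10558 that were neither members nor pseudogenes and had a mean of at least 10 CPM, were BTBD9 (Pearson's r = 0.986), the lncRNA ENSG00000176868 (r = 0.985), COX7A2L (r = 0.983), BICD1 (r = 0.983) and ADCK1 (r = 0.982). The likeness was measured over 8 libraries that fall into treated and control groups. ADCK1 rose by 0.82 at 12 h and 1.17 at 24 h on the log2 scale, while COX7A2L gave 0.14 (adjusted p = 0.086) and rose by 0.22 (adjusted p = 0.0036).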

How the data were processed

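RNA from BG01 hESCs was sequenced in 8 libraries, 2 for each of 4 groups. Read trimming (Trimmomatic), alignment (STAR, run in 2 passes against GRCh38.p14), removal of duplicates (Picard) and counting (HTSeq, Ensembl genes) were done by the authors, and the submitters' notes also name FastQC 0.11.9 and GATK. The deposited count table gives whole reads per gene, and a second deposited table gives FPKM, which the authors computed with RNAnorm. How the removal of duplicates altered these counts was not tested, and whether counting used strand is not given in the sources used here. All 62086 identifiers were paired with a symbol in GENCODE. Columns without a matching sample label, 4 in each table, were left out. In the count table, 1005 lines have no gene name. Among the final 5 lines 1 takes 49.3 to 50.1% of a library's counts, while the earlier 1000 hold 0.192 to 0.21%, and none entered library sizes or tests.

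Counts were filtered by filterByExpr within groups (20165 genes), scaled by TMM and fitted with a mean for each group in edgeR 4.0.16 (R 4.3.3). Contrasts were tested with the two-sided quasi-likelihood F test and Benjamini-Hochberg adjustment over all genes, at an adjusted p under 0.05. The common biological coefficient of variation was 5.53%. With counts over genes of 21010400 to 21792716 and 2 libraries a group, the median SE of a member was 0.05 on the log2 scale. The scripts were tested on simulated data. Alternatives, 25 in all, used DESeq2 1.42.0, limma 3.58.1 on log2(FPKM + 1) and log2(FPKM + 0.1) for genes with a mean FPKM of at least 0.5 and for all genes, other scalings, filters and offsets, a replicate block, and each library left out. The crossed block was chosen after seeing the data. Medians and sums over members have no test.

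Members, lists and tests were chosen with earlier results of these data known. Members are named by a rule: up to 6 on each side by adjusted p at each time, up to 4 on each side for the difference between the times, the largest change on each side, those with well-known single roles, of the stalk and of the 5S particle, and the highest and lowest by FPKM. From each other list up to 4 genes per time, by adjusted p, are named, and 5 genes by likeness to the members' mean. Other members are named as those of a list or count. Some genes that these rules name are not reported here.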

Additional observations from a re-analysis of the deposited data

Results flagged for a closer look

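In 3 genes the response to anti-M8nAb differed between the times by the test of the difference itself (edgeR's quasi-likelihood test). For the member RPS6 the response at 24 h exceeded that at 12 h by 0.22 on the log2 scale (adjusted p = 0.02), and replicate 2 of anti-M8nAb at 12 h was its lowest library. The call was lost in 10 of 24 alternatives. For EEF1A1 the difference was 0.17 (adjusted p = 0.016), with a rise at both times, and 8 of 24 alternatives lost this call. For GRWD1 it was −0.35 (adjusted p = 0.0077), from a rise at 12 h to an estimate below 0 at 24 h, and 7 of 24 alternatives lost it. At this threshold 5.79% of all genes differed upward and 6.54% downward.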

How the results depend on the processing

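Of the values given for the members as a whole, 310 under the alternatives stayed within the set bounds and 48 moved. With total counts 15 members rose at 12 h and 27 at 24 h, with medians of 0.070 and 0.095. With limma on log2(FPKM + 1) or log2(FPKM + 0.1) 4 and 17 rose, and 1 and 6 without the filter, with medians of 0.069 (0.070 with the smaller pseudocount) and 0.093 (0.094). Neither setting applies TMM. Without the filter on low counts the difference between the times passed in 0 members, and with limma in 0. In edgeR on each time alone 0 members fell at 24 h. From 12 to 24 h in IgG cells 1 member fell with TMM factors computed without the members, with protein-coding genes alone and with pseudogenes added, and 3 with an offset for GC content. When single libraries were left out, the number that rose ranged from 16 to 48 at 12 h and from 43 to 67 at 24 h, the number that fell from 0 to 1 at each time and from 0 to 1 in IgG cells, the number that differed between times from 0 to 5, and the median at 12 h from 0.12 to 0.17. DESeq2 called 38 and 58 higher.

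Replicates with the same number did not deviate together (r between −0.12 and 0.07 for 6 pairs of groups), so the numbers were taken as names. With the replicate block 41 members rose at 12 h, 65 at 24 h, and 1 fell in IgG cells. With the numbers of anti-M8nAb at 24 h crossed, chosen after seeing the data, 46 and 68 rose, and 1 fell in IgG cells.

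For single genes named in the text, 2059 values stayed on their side of the threshold, 39 came to pass it, 304 no longer passed and 20 changed sign. With total counts the estimate became −0.048 for RPLP2 and −0.029 for IPO9 at 24 h, and −0.018 for RPL36A and −0.013 for RPS29 at 12 h. With limma it became −0.047 for RPLP2 and −0.028 (−0.029 with the smaller pseudocount) for IPO9 at 24 h, and at 12 h −0.020 (−0.021) for RPL36A and −0.015 (−0.016) for RPS29. When single libraries were left out, the estimate at 12 h ranged from −0.12 to 0.053 for RPS6, from −0.010 to 0.20 for RPLP2, from −0.071 to 0.16 for RPL36A and from −0.035 to 0.13 for RPS29. The opposite sign came without replicate 2 of anti-M8nAb at 12 h in RPS6, RPLP2 and RPS29, and without its replicate 1 in RPL36A. The cause was not tested. With 2 libraries a group, changes of the size seen here lie near what the fit can call, so a member that did not pass may still have changed.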

Other observations

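Beyond the members, some pseudogenes named for them were called higher with treatment at 12 h. The filter on low counts keeps a gene with enough counts in any 2 libraries. A pseudogene could therefore pass it through the anti-M8nAb libraries of 12 h alone, which favours rises at that time. How many did so was not tested. Of the 189 that passed the filter, 60 rose and 1 fell at 12 h, and 12 rose and 3 fell at 24 h, with medians of 0.53 and 0.20 on the log2 scale (edgeR). Without replicate 2 of anti-M8nAb at 12 h, 38 rose at that time, where 2459 of 21118 genes did. Over all genes 15.8% rose at 12 h and 21.2% at 24 h, where 6.35% of these pseudogenes rose at 24 h. From 12 to 24 h in IgG cells 2 rose and 1 fell. The following 3 were chosen after their values were seen, as those with the largest difference in mean CPM at 12 h. RPL13AP5 read 34.5 and 32.0 CPM with IgG and 70.6 and 142 CPM with anti-M8nAb at 12 h, and 31.9, 31.5, 35.5 and 35.4 CPM in the same order at 24 h. RPLP0P6 read 33.1 and 37.5 CPM with IgG and 56.8 and 156 CPM with anti-M8nAb at 12 h. RPS2P5 read 144 and 144 CPM with IgG and 187 and 237 CPM with anti-M8nAb at 12 h. In each, replicate 2 of anti-M8nAb at 12 h was the highest of the 8 libraries and replicate 1 of that group the second highest. Their parent genes RPL13A, RPLP0 and RPS2 were among the 57 of 78 members that were lower in that replicate 2 than in replicate 1. Whether reads of the parents were placed on these copies was not tested.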
